A study of Homo sapiens with 3 samples.

Results

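The genes described here encode the general machinery that destroys messenger RNA in human cells, from removal of the poly(A) tail and of the cap to digestion from either end. They were taken as a named list of 49 symbols, and 48 of them had at least 1 probe set annotated to that gene alone, out of 18239 genes so represented. The level of the remaining gene, UPF3B, was not analysed here. Biotin-labelled RNA of A498, an established line of human kidney carcinoma cells with epithelial character, was hybridized to 3' expression arrays. All cells were confluent and were kept in serum-free medium with gentamicin for 4 h. One group received E. coli 83972, a urinary tract isolate carried without symptoms, and another received 60 µM DRB, an inhibitor of the elongation kinase CDK9. The control received 0.08% DMSO, which the labels do not state for the other groups. There was 1 array per group, all from the experiment numbered 2, so each difference compares single arrays and no test of conditions was possible.

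An mRNA usually begins to decay when the PAN2-PAN3 and CCR4-NOT complexes shorten its poly(A) tail. The deadenylated end is then bound by the LSM1 to LSM7 ring and PATL1, DCP2 removes the cap with help from its cofactors, and XRN1 digests the body from the exposed end. The RNA exosome digests from the opposite end, and nonsense-mediated decay and ribosome rescue factors direct faulty or stalled mRNAs into the same enzymes. In epithelial cells that meet bacteria these enzymes also limit how long cytokine mRNAs last.

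Values are on the deposited log2 scale, and a difference of 1 is 2-fold. Each gene was represented by whichever of its probe sets averaged highest on the 3 arrays, and was kept when its highest value reached 4.88, the median of all values. All 48 genes were kept, and 1 of them, SMG5, had a value below that level on 1 array. Over the 11653 genes kept, probe sets of the same gene disagreed by an amount equal to a technical standard deviation of 0.18 in the E. coli 83972 differences from control, 0.32 in the DRB differences and 0.35 when the treatments were set against each other (6317 genes). A robust standard deviation, less moved by genes whose probe sets differ widely, was 0.12, 0.15 and 0.17 in the same order. Neither measure holds variation between cultures. Epithelial keratin and kidney genes were detected, with KRT18 at 11.55, 11.67 and 11.63 and PAX8 at 7.23, 6.10 and 7.07 on the E. coli 83972, DRB and control arrays, whereas CDH1 stayed below the filter level on all 3. In all, 7 of 8 epithelial and kidney carcinoma genes reached it, VIM and CDH2 among them. So did 2 of 5 leukocyte, 2 of 4 endothelial and 1 of 4 fibroblast genes. Of the leukocyte genes, CD68 read 8.998, 9.41 and 9.08 and CD3E reached 5.03 with DRB, while PTPRC and CD14 were below the filter level on every array. The part of other cell types in the results was not tested. In RNA from whole cultures, fewer cells and less RNA per cell cannot be told apart.

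With DRB, 8 of the 48 decay genes (16.7%) were at least 2-fold lower than control and 0 were at least 2-fold higher. Over all kept genes 10.2% were lower and 0.129% were higher. The genes that were lower were PELO, CNOT4, DCP2, DCP1B, EXOSC3, UPF2, CNOT6 and PAN3. The median difference of the 48 genes was −0.19, beside 0.05 over all kept genes. With E. coli 83972, 1 of the 48 genes (2.08%), DCP1A, was at least 2-fold higher than control and 0 were lower, beside 1.91% and 0.652% of all kept genes. Their median was −0.0036, beside −0.03 over all kept genes, and 24 lay on either side of 0. Both comparisons use the same control array. At a threshold of 1.5-fold, CNOT6L, EXOSC4 and EXOSC6 joined the genes lower with DRB (11 of 48, beside 18.1% of all kept genes), and 0 were higher (beside 2.03%).

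**Figure D1:**
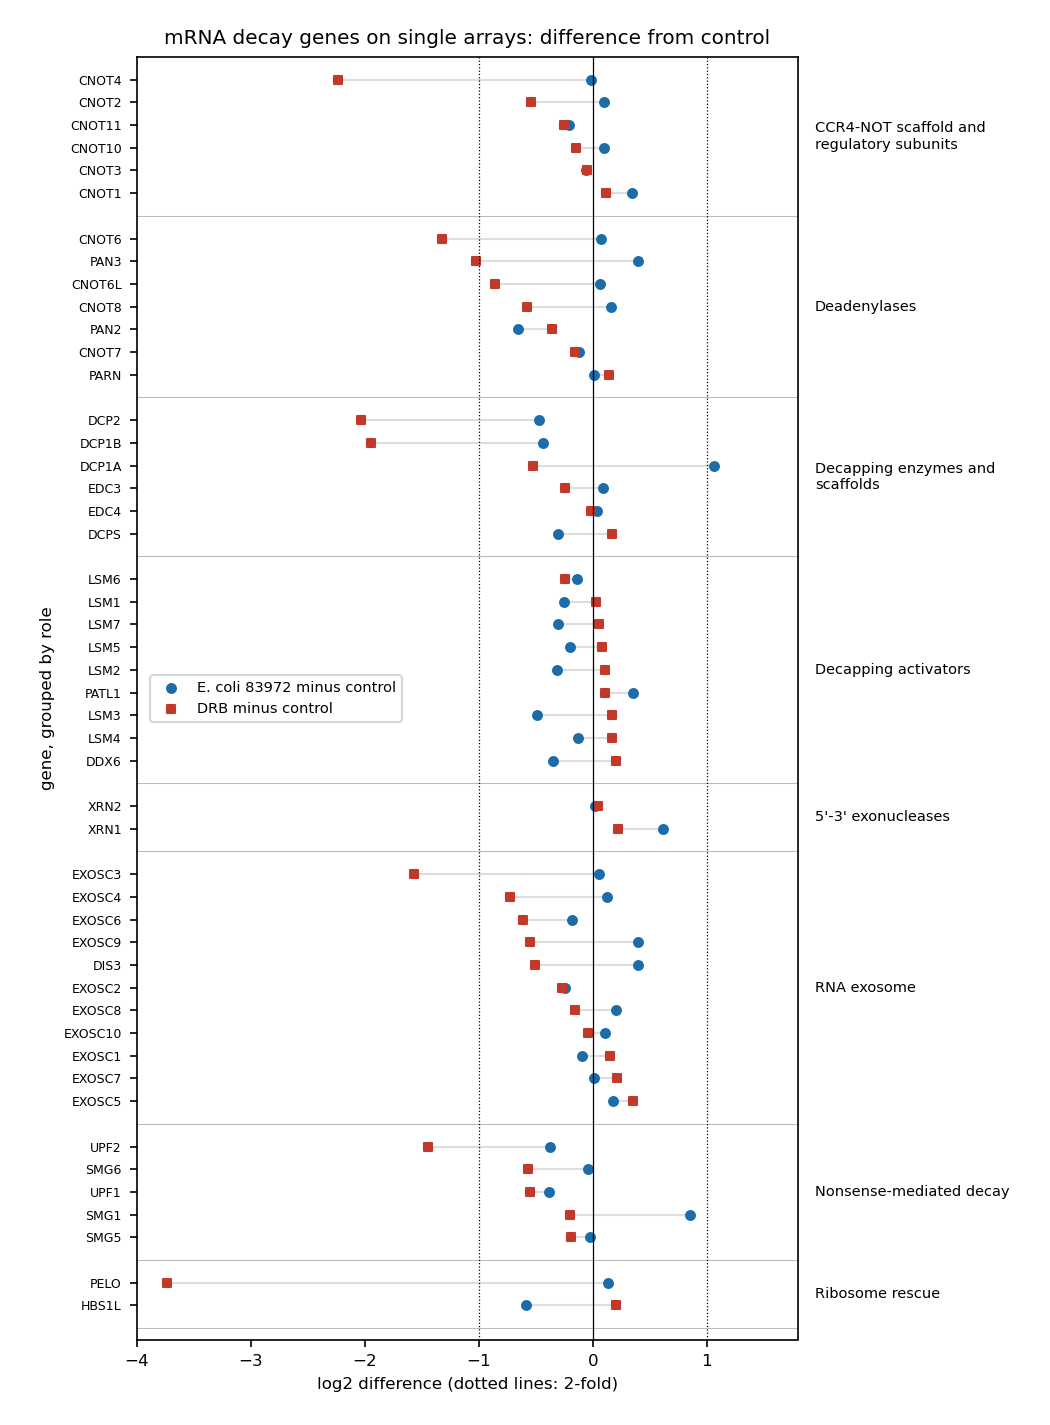
Log2 difference from control (horizontal axis) of each of the 48 decay genes, grouped by role, for E. coli 83972 (blue circles) and DRB (red squares), 1 array per group; dotted lines mark 2-fold. The 8 genes left of the lower line with DRB are spread over 6 of the 8 roles, and DCP1A alone lies right of the upper line, with E. coli 83972.

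The deposited values share nearly one distribution, which can reduce a change common to most transcripts. Relative to the 24 poly-A spike-in probe sets, the median of all kept genes was −0.07 on the E. coli 83972 array and −0.62 on the DRB array, both as differences from control. Relative to the 9 hybridization spike-in probe sets, these medians were −0.36 with E. coli 83972 and −0.18 with DRB. The differences below are on the deposited scale, so they are relative to the bulk of transcripts on the same arrays. On the poly-A scale all 48 decay genes lay below 0 with DRB, as did 11515 of the 11653 kept genes.

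**Figure D2:**
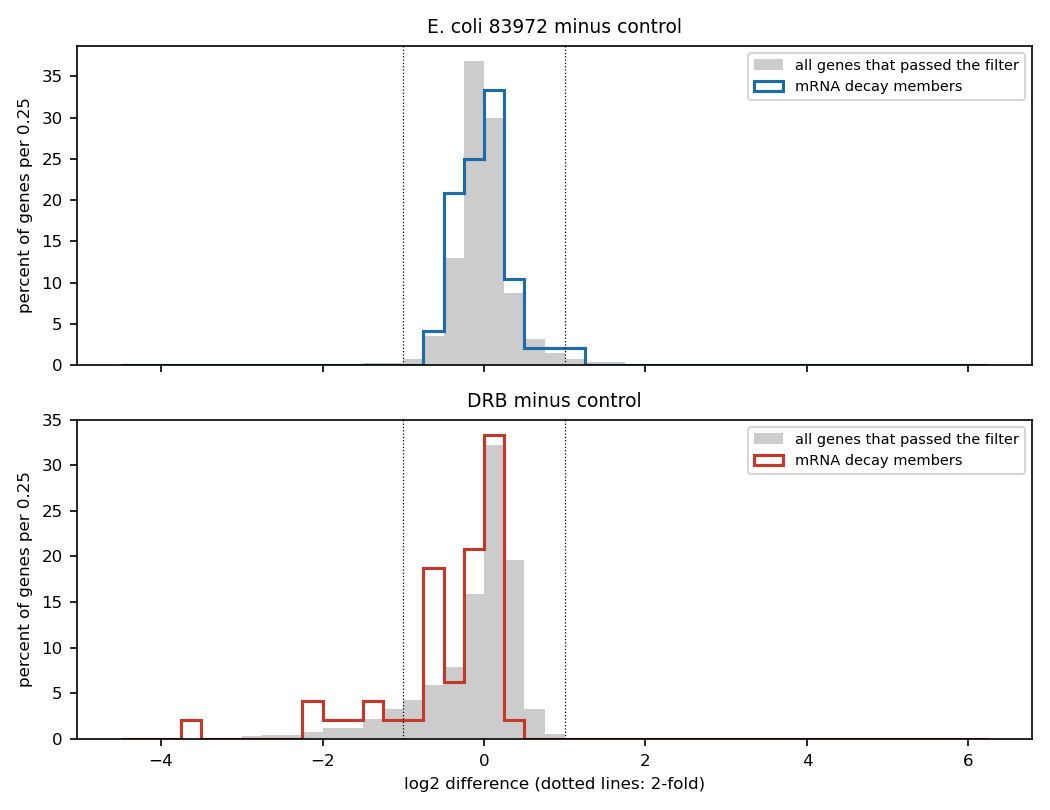
Share of genes (vertical axis, percent per 0.25 log2) by log2 difference from control for the 48 decay genes (coloured outline) and for all 11653 kept genes (grey), with E. coli 83972 above and DRB below. With DRB the decay genes hold a tail to −3.73, and with E. coli 83972 they stay between −0.66 and 1.06.

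Promoter windows are shown for 3 genes: PELO, the decay gene with the lowest DRB difference, and the paralogs DCP1A and DCP1B, which lay on opposite sides of control with E. coli 83972. The windows are from RefSeq on GRCh38.p14, run 5′ to 3′ on the gene's strand from 250 bases before to 50 after the annotated start, and lie at chr5:52787666-52787965 (plus strand), chr3:53347494-53347793 (minus strand) and chr12:2004408-2004707 (minus strand). Capitals mark matches on either strand to the GC box GGGCGG or the ETS core CCGGAAG.
PELO: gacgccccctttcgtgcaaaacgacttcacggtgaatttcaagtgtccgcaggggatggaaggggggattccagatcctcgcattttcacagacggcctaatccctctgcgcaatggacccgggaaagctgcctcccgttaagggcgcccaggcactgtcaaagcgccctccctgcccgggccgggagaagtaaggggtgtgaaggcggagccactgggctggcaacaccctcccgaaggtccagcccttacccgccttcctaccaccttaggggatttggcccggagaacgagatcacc
DCP1A: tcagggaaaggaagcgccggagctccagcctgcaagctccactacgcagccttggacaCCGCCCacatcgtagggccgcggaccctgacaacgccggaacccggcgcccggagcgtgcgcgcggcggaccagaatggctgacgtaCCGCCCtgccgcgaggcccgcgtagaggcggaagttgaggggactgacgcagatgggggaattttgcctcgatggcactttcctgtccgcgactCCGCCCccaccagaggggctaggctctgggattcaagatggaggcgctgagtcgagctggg
DCP1B: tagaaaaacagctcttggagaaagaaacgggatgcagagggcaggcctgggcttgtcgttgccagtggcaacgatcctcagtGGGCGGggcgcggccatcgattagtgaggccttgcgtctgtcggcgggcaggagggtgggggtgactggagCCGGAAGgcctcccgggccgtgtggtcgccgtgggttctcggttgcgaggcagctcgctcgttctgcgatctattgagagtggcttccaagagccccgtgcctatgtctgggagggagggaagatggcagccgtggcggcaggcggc
DCP1A held 3 GC boxes and DCP1B held 1 GC box and 1 ETS core. The PELO window held neither. None of the 3 windows held the AP-1 site TGANTCA, the TATA box TATAAA or the 1 form of the κB site that was searched. Other forms of the κB site were not searched, so these windows may hold them. Windows were found for 43 of the 49 listed genes, 60 in all. A GC box was in 76.7% of them and in 45.0% of all 35116 windows, and an ETS core in 11.7% and 10.3%. The searched form of the κB site was in 1.67% and 0.558%, an AP-1 site in 3.33% and 7.71%, and a TATA box in 1.67% and 11.5%. All 35116 windows were counted whether or not their genes were kept on these arrays, so the sets compared are unlike. These counts describe letters in a window, and no site was shown to be used.

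PELO, which with HBS1L frees ribosomes stalled at the end of a broken mRNA, had the lowest DRB difference of the list. It read 9.64 with E. coli 83972 and 5.78 with DRB, against 9.51 in the control. The DRB array alone was low, by 13.3-fold (log2 −3.73), and only 8 of the 11653 kept genes had a lower difference. Its other probe set read 8.98, 5.24 and 8.95, so the pair gave −3.72 ± 0.01 (SD over 2 probe sets). HBS1L, the GTPase partner of PELO, read 7.87 with E. coli 83972 and 8.66 with DRB, against 8.46 in the control. Its DRB difference was 0.20 and its E. coli 83972 difference −0.58, or −0.64 ± 0.07 over 2 probe sets. Of the differences of this pair from control, only the DRB value of PELO was past 2-fold.

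The annotated span of PELO lies within that of ITGA1, an integrin gene, and the RefSeq window printed above for PELO is also that of ITGA1. The ITGA1 probe set read 3.98 with E. coli 83972 and 4.83 with DRB, against 4.12 in the control, all below the filter level. Its DRB difference was 0.70, and at such levels the array gives little information on ITGA1.

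The decapping genes held the members with the next lowest DRB values after CNOT4, and the gene that was higher with E. coli 83972. DCP2, the enzyme that cleaves the cap, read 7.10 with E. coli 83972 and 5.54 with DRB, against 7.57 in the control. It was 4.10-fold lower with DRB (log2 −2.04), and its 2 kept probe sets gave −1.88 ± 0.21. With E. coli 83972 it differed by −0.47.

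DCP1A and DCP1B encode alternative activating partners of DCP2. DCP1B read 7.01 with E. coli 83972 and 5.51 with DRB, against 7.45 in the control, which is a DRB difference of −1.94 from the 1 probe set that reached the filter level. DCP1A read 8.09 with E. coli 83972 and 6.50 with DRB, against 7.02 in the control. It was 2.09-fold higher with E. coli 83972 (log2 1.06), where DCP1B differed by −0.44. A second DCP1A probe set read 8.41, 6.21 and 6.82, and the pair gave 1.32 ± 0.37 with E. coli 83972 and −0.57 ± 0.06 with DRB. The E. coli 83972 difference of DCP1A was 0.73 when centred on hybridization spike-ins and 0.83 on all spike-ins, under 2-fold.

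The scaffolds and the scavenger of the pathway stayed near control. EDC4, the large scaffold of the decapping complex, read 7.63 with E. coli 83972 and 7.58 with DRB, against 7.59 in the control. EDC3 differed by 0.09 with E. coli 83972 and −0.24 with DRB. DCPS, which hydrolyses the cap remnant left after decay by the exosome, differed by −0.30 and 0.17. All of these differences were under 2-fold.

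**Figure D3:**
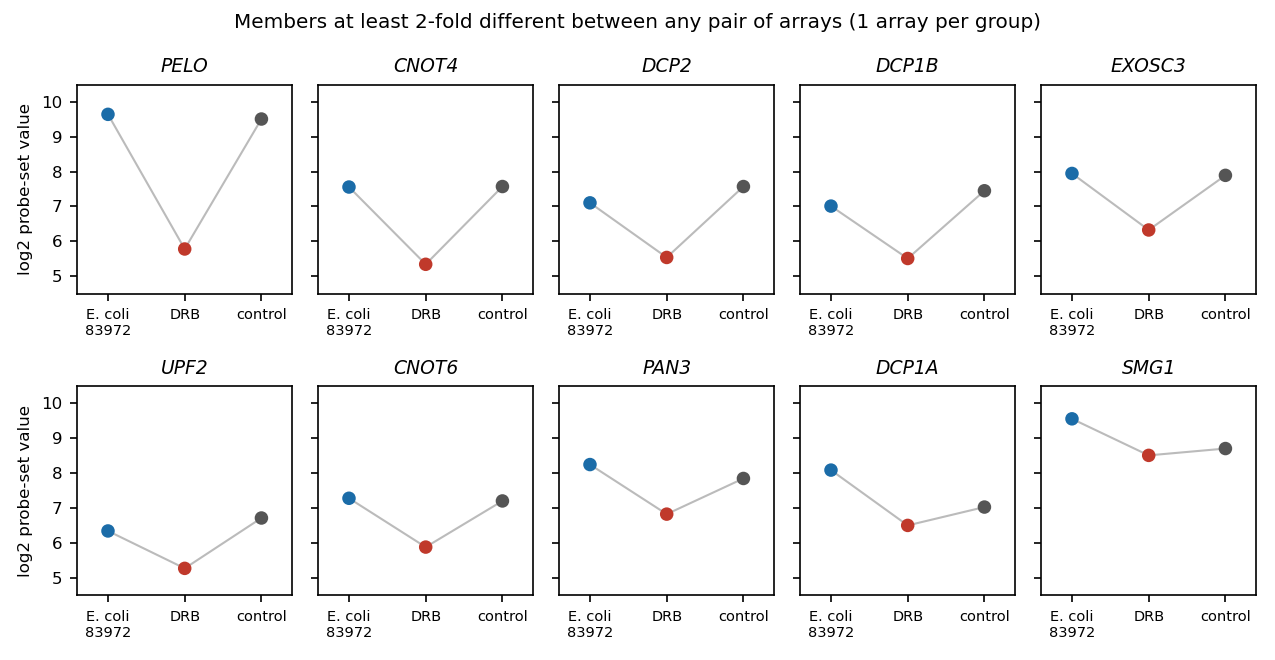
Log2 probe-set value (vertical axis) on the E. coli 83972, DRB and control arrays for the 10 decay genes that were at least 2-fold different between any pair of arrays, 1 point per array. In PELO, CNOT4, DCP2, DCP1B, EXOSC3, UPF2, CNOT6 and PAN3 the DRB point is low, and in DCP1A and SMG1 the E. coli 83972 point is high; levels of different genes are not compared.

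Among subunits of CCR4-NOT, the main deadenylase complex, 2 of 10 were at least 2-fold lower with DRB, beside 10.2% of all kept genes. With E. coli 83972 0 of 10 were 2-fold different, beside 0.652% of all kept genes lower and 1.91% higher. CNOT4, a RING ubiquitin ligase loosely attached to the human complex, read 7.56 with E. coli 83972 and 5.34 with DRB, against 7.57 in the control (DRB difference −2.23). Its probe sets disagreed. The 4 that reached the filter level gave −2.23, −0.94, 0.05 and 0.87 with DRB, a mean of −0.56 ± 1.34, so the direction of CNOT4 rests on the probe set chosen. CNOT1, the scaffold that holds the complex together, differed by 0.35 with E. coli 83972 and 0.12 with DRB. CNOT2, of the NOT module, read 8.95 with E. coli 83972 and 8.31 with DRB, against 8.85 in the control. Its DRB difference was −0.54, and 1 of its 3 probe sets was at −1.11. CNOT3, the partner of CNOT2, read 5.28 with E. coli 83972 and 5.29 with DRB, against 5.34 in the control. CNOT10 and CNOT11, which form a module of their own, differed by −0.14 and −0.25 with DRB.

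The catalytic subunits come as paralog pairs of 2 nuclease types. CNOT6, of the Ccr4 type, read 7.28 with E. coli 83972 and 5.88 with DRB, against 7.20 in the control. It was 2.50-fold lower with DRB (−1.32), and its 4 probe sets all lay below 0, at −1.22 ± 0.33. CNOT6L, its paralog, read 7.24 with E. coli 83972 and 6.32 with DRB, against 7.18 in the control, and its DRB difference of −0.85 was under 2-fold. Of the Caf1 type, CNOT7 differed by −0.16 with DRB, and its 6 probe sets gave −0.09 ± 0.23. CNOT8 differed by −0.58, with 4 probe sets between −1.29 and −0.47. With E. coli 83972 the differences of these 4 nucleases ran from −0.12 to 0.16.

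PAN2 and PAN3 form the complex that trims long tails first. PAN3, the subunit that binds poly(A)-binding protein, read 8.24 with E. coli 83972 and 6.82 with DRB, against 7.85 in the control, a DRB difference of −1.02, just past 2-fold, from 1 kept probe set. PAN2, the nuclease, read 6.11 with E. coli 83972 and 6.41 with DRB, against 6.76 in the control. Its E. coli 83972 difference of −0.66 was the lowest of the list, and PAN3 differed by 0.40 on the same arrays. PARN, a poly(A) nuclease that matures small noncoding RNAs, read 9.20 with E. coli 83972 and 9.34 with DRB, against 9.19 in the control.

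**Figure D4:**
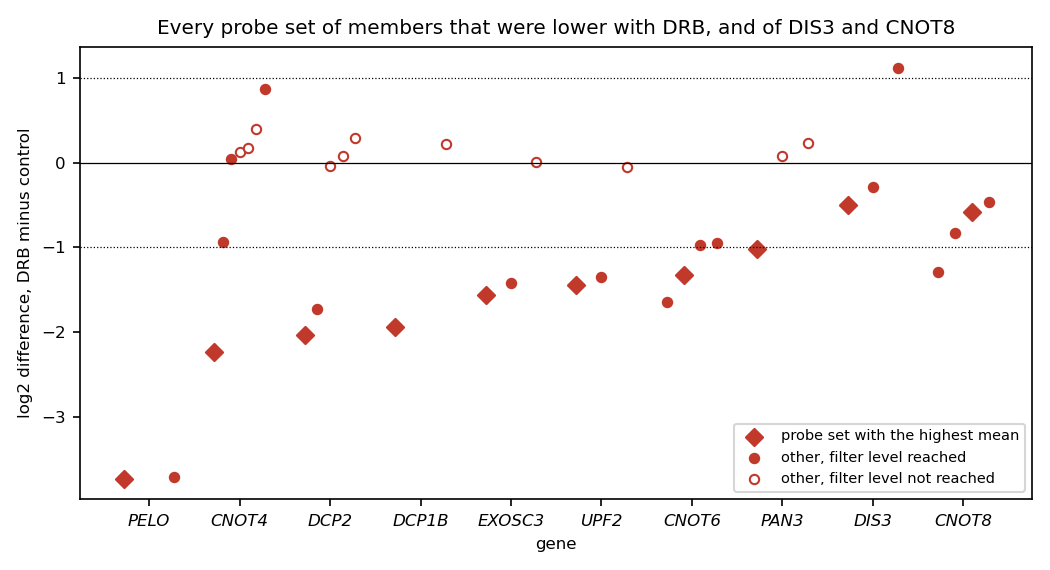
Log2 difference of DRB minus control (vertical axis) for every probe set of the 8 decay genes that were at least 2-fold lower, and of DIS3 and CNOT8; diamonds mark the probe set that stands for the gene and open circles those below the filter level on all arrays. Kept probe sets of PELO, DCP2, EXOSC3, UPF2 and CNOT6 lie on one side of 0, while those of CNOT4 and DIS3 lie on both.

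The genes whose products recognise deadenylated mRNA stayed under 2-fold. Of 9 decapping activators 0 were 2-fold different with either treatment. Over all kept genes 10.2% were lower and 0.129% higher with DRB, and 0.652% lower and 1.91% higher with E. coli 83972. The 7 LSM genes, whose products form the ring that binds short tails, lay between −0.24 and 0.17 with DRB and between −0.49 and −0.13 with E. coli 83972. All 7 were below 0 with E. coli 83972, at a median of −0.25, where 6380 of the 11653 kept genes were below 0. After loess correction all 7 were still below 0, at a median of −0.19. With DRB 6 of the 7 were above 0 on the deposited scale, 4 after loess correction and 0 on the poly-A scale, where 138 of the 11653 kept genes were above 0. LSM6 read 9.76 with E. coli 83972 and 9.66 with DRB, against 9.90 in the control. LSM3, the lowest with E. coli 83972, gave −0.50 ± 0.03 over 3 probe sets. LSM1, the subunit that sets the cytoplasmic ring apart from the nuclear one, read 8.90 with E. coli 83972 and 9.18 with DRB, against 9.16 in the control. DDX6, the helicase that links CCR4-NOT to decapping, read 9.08 with E. coli 83972 and 9.63 with DRB, against 9.42 in the control. PATL1, which bridges the ring and DCP2, differed by 0.35 with E. coli 83972 and 0.11 with DRB.

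XRN1, the cytoplasmic exonuclease that degrades uncapped mRNA, read 7.47 with E. coli 83972 and 7.08 with DRB, against 6.86 in the control. Its E. coli 83972 difference of 0.62 was past 1.5-fold but under 2-fold, and its 2 kept probe sets gave 0.73 ± 0.16. XRN2, its nuclear relative, which acts in transcription termination, read 10.31 with E. coli 83972 and 10.34 with DRB, against 10.30 in the control. At 1.5-fold the genes higher with E. coli 83972 were DCP1A, SMG1 and XRN1 (3 of 48, beside 5.19% of all kept genes), and PAN2 was lower (1 of 48, beside 3.06%).

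Of the 11 exosome genes 1 (9.09%) was at least 2-fold lower with DRB, beside 10.2% of all kept genes. With E. coli 83972 0 of the 11 were 2-fold different, beside 0.652% of all kept genes lower and 1.91% higher. EXOSC3, a cap subunit that binds the RNA entering the barrel, read 7.95 with E. coli 83972 and 6.32 with DRB, against 7.89 in the control. It was 2.97-fold lower with DRB (−1.57), and its 2 kept probe sets gave −1.57 and −1.43. The other cap subunits did not share this size, with EXOSC1 at 0.15 and EXOSC2 at −0.27. Of the barrel subunits, EXOSC4 read 7.90 with E. coli 83972 and 7.06 with DRB, against 7.78 in the control (−0.73). EXOSC6 and EXOSC9 differed by −0.61 and −0.55 with DRB, EXOSC8 by −0.16, and EXOSC7 and EXOSC5 by 0.21 and 0.36. EXOSC10, a nuclease of the nuclear exosome, read 7.23 with E. coli 83972 and 7.08 with DRB, against 7.12 in the control. DIS3, the main catalytic subunit, differed by 0.40 with E. coli 83972, and its 3 probe sets gave 0.46 ± 0.09. With DRB these 3 gave −0.51, −0.29 and 1.12, so DIS3 had no direction common to its probe sets.

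In nonsense-mediated decay, which removes mRNAs with premature stop codons, 1 of 5 genes was at least 2-fold lower with DRB (beside 10.2% of all kept genes), and all 5 lay below 0, as did 5147 of the 11653 kept genes. UPF2, the adaptor that activates the helicase UPF1, read 6.34 with E. coli 83972 and 5.27 with DRB, against 6.71 in the control. It was 2.72-fold lower with DRB (−1.45), and 2 kept probe sets gave −1.40 ± 0.07. UPF1 itself differed by −0.55 with DRB and −0.38 with E. coli 83972. SMG6, the endonuclease that cuts near the stop codon, read 6.44 with E. coli 83972 and 5.91 with DRB, against 6.48 in the control. SMG5, an adaptor to decay enzymes, read 4.92 with E. coli 83972 and 4.76 with DRB, against 4.94 in the control, close to the filter level. SMG1, the kinase of UPF1, was the member with the second highest difference for E. coli 83972. It read 9.56 with E. coli 83972 and 8.51 with DRB, against 8.70 in the control (0.85), and 2 probe sets gave 0.83 ± 0.03. SMG1 has near-identical pseudogene copies to which its probe sets may also hybridize.

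Set directly against DRB, E. coli 83972 gave 10 of the 48 genes (20.8%) at least 2-fold higher and 0 lower, beside 12.3% and 0.386% of all kept genes. The median was 0.20, beside −0.07 over all kept genes. This comparison shares an array with each of the others. The 10 genes were the 8 that were lower with DRB, with PELO at 3.87, CNOT4 at 2.22, EXOSC3 at 1.62, DCP2 at 1.57, DCP1B at 1.5, PAN3 at 1.42, CNOT6 at 1.40 and UPF2 at 1.07, together with DCP1A at 1.59 and SMG1 at 1.05. Centred on hybridization spike-ins, UPF2 at 0.97 and SMG1 at 0.94 were under 2-fold, which left 8 genes. HBS1L and LSM3, at −0.79 and −0.66, were more than 1.5-fold lower with E. coli 83972 than with DRB (2 of 48, beside 5.72% of all kept genes). The other kept probe set of HBS1L was at −1.04, past 2-fold. At 1.5-fold 16 were higher (beside 19.3%), the others being CNOT2, CNOT6L, CNOT8, DIS3, EXOSC4 and EXOSC9. Of the 3 DIS3 probe sets 1 was at −0.57.

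A list of 57 further genes of mRNA decay was set beside these, of which 50 were kept. With DRB 11 of the 50 (22.0%) reached a 2-fold reduction and 0 a 2-fold increase, and their median was −0.21, beside 10.2%, 0.129% and 0.05 over all kept genes. With the mean over all probe sets 6 of 48 were lower, beside 7.08% of all genes. With E. coli 83972 1 was higher and 0 were lower, beside 1.91% and 0.652% of all kept genes. The median was 0.02, beside −0.03 over all kept genes. The gene higher with E. coli 83972 was PNRC1, a relative of the decapping coactivator PNRC2. PNRC1 read 11.33 with E. coli 83972 and 5.76 with DRB, against 8.89 in the control. It was 5.46-fold higher with E. coli 83972 (2.45) and 8.75-fold lower with DRB (−3.13), although its 2 kept probe sets disagreed in size with DRB (−1.87 ± 1.78) and not with E. coli 83972 (2.42 ± 0.03). PNRC2, which joins UPF1 to the decapping enzyme, read 8.05 with E. coli 83972 and 5.19 with DRB, against 8.69 in the control (DRB difference −3.50). EIF4ENIF1, which binds the cap-binding protein in P-bodies, differed by −1.23 with DRB, but its 2 kept probe sets gave −0.57 ± 0.93. LSM8, the nuclear counterpart of LSM1, differed by −0.56.

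Cofactors of the exosome had 3 of 12 kept genes (25%) at least 2-fold lower with DRB, beside 10.2% of all kept genes. With the mean over all probe sets 2 of 12 were lower, beside 7.08%. RBM7 and ZCCHC8 encode parts of the complex that feeds short-lived nuclear RNA to the exosome. RBM7 read 7.89 with E. coli 83972 and 4.59 with DRB, against 7.34 in the control (−2.76, from 1 kept probe set). The DRB value of RBM7 lay below the filter level of 4.88, so the size of its difference is uncertain. ZCCHC8 read 7.93 with E. coli 83972 and 5.30 with DRB, against 7.17 in the control (−1.88, from 1 kept probe set). TENT4A, a poly(A) polymerase that tags RNA, differed by −1.22 with DRB, but its 2 kept probe sets gave −0.53 ± 0.98. ZCCHC7, a partner of that polymerase family, differed by −0.81. Of 14 kept poly(A) and deadenylase genes 4 (28.6%) were lower with DRB, beside 10.2% of all kept genes. With the mean over all probe sets 1 of 12 was lower, beside 7.08%. The 4 included PDE12, a mitochondrial poly(A) nuclease, at −1.58, and the uridyltransferase gene TUT7 at −1.34 from 1 kept probe set. The others were ANGEL2 at −1.23 (−1.02 ± 0.30 over 2 kept probe sets) and the nuclear deadenylase gene TOE1 at −1.11. Over its 4 kept probe sets TOE1 gave −0.88 ± 0.26, under 2-fold. Of 14 other nonsense-mediated decay and exon junction genes 1 (7.14%) was lower, beside 10.2% of all kept genes. It was SMG8, a regulator of SMG1, at −2.01 from 1 kept probe set. Next in size were ZNF598 at −0.48, CASC3 at −0.44 and NBAS at 0.37.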

How the data were processed

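Probe-set values on a log2 scale were deposited by the authors, who used RMA and Partek per the submitters' processing notes. Software versions, the type of background correction and how many arrays entered the normalization were not given in the sources used here. The table held 49386 probe sets, of which 45259 were annotated to 1 gene, 1327 to several and 2800 were not listed. Symbols were updated by Entrez identifier with the RefSeq table of GRCh38.p14. Only the column of each of the 3 samples was used, with no further normalization and no pseudocount. RMA can compress differences of dim probe sets, and probe sets with a suffix other than plain may bind several transcripts. With 1 array per group no test was run, and precision is limited by the small number of arrays. Genes were called at 2-fold. All genes of the list are accounted for. Values on every array are given for those called and, in each role, for those with the largest and smallest DRB differences, and up to 4 genes are named from each further list. The members and lists were chosen with earlier results of these data known. Calculations (Python 3.11.15, pandas 2.3.3) were tested on simulated data. Alternatives covered the choice of probe set, the filter, scaling and the call.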

Additional observations from a re-analysis of the deposited data

How the results depend on the processing

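No paired analysis was possible because each group had 1 array. With DRB the number of decay genes at least 2-fold lower was 8 as reported, 2 of 46 with the mean over all probe sets (CNOT6 and PELO), 3 of the 12 genes with plain-suffix probe sets, 19 centred on poly-A and 21 on all spike-ins. Over all kept genes these settings gave 7.08%, 11.5%, 25.4% and 28.5%, so with the mean over all probe sets the decay genes' share (4.35%) was below that of all genes, where as reported it was above. It was 7 with the mean over probe sets that reached the filter level, an alternative chosen after seeing the data, which leaves out CNOT4. The mean over all probe sets includes those below the filter level. The DRB median was −0.86 and −0.95 with poly-A and all spike-ins. Each shift was a difference between array medians of the spike-in values. For DRB against control it was 0.67 for poly-A, 0.23 for hybridization and 0.75 for all spike-ins. The pooled shift thus lay above those of both its parts. CNOT4 was 0.87 with DRB, and −0.34 for E. coli 83972 against DRB, from plain-suffix probe sets. PELO was at least 2-fold lower under all 10 alternatives.

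With E. coli 83972 against control the number higher was 0 centred on hybridization or on all spike-ins, with medians of −0.34 and −0.23. At 1.5-fold 3 genes were higher and 1 lower. The median lay above 0 with plain-suffix probe sets (0.13), the filter on the mean (0.0072) and loess correction (0.036). For E. coli 83972 against DRB the number higher was 4 with the mean over all probe sets, 5 with plain-suffix probe sets, 19 and 17 centred on poly-A and all spike-ins, and 16 at 1.5-fold, where 2 were lower. Over all kept genes these were 9.27%, 14.3%, 24.7%, 22.1% and 19.3%, and the decay genes' share was again lower than that of all genes with the mean over all probe sets (8.70%). The medians were 0.64 with plain-suffix probe sets and 0.82 and 0.72 with those centrings. Centring shifts all genes alike, so it moves counts and not the order of genes. The cause of the other changes was not tested.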
